A study of Mus musculus with 70 samples.

Results

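GFP-positive colonic epithelial cells that lay beside MEK1-activated cells were compared with GFP-positive cells of untreated mice of the same genotype. The comparison holds 5 of the 70 libraries of the study and 5 of its 23 colon libraries, chosen by their group labels alone. It sets GFP cells of 2 caMEK1 mice on doxycycline until day 7 (animals 5 and 7) against GFP cells of 3 caMEK1 mice without doxycycline (animals 1, 3 and 11). Each library came from a different animal.

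All animals were male C57BL/6 chimeric mice in which mCherry marks the cells that carry the inducible kinase and GFP marks the cells around them. In caMEK1 mice the kinase is a constitutively active MEK1, read from a Xenopus sequence, which signals through ERK and brings on the senescence seen after oncogene activation. The mice drank doxycycline at 0.2 mg/mL, sweetened by 10 mg/mL sucrose. For 2 further comparisons, GFP cells of control mice (2 with and 3 without doxycycline) and of caMKK6 mice (3 with and 3 without) were used. Their dose was 2 mg/mL, so genotype and dose differ together, and in caMKK6 mice the mCherry cells carry an active human MKK6 upstream of p38. Age, hour of collection, the promoter that drives the kinase, and whether untreated mice drank sucrose are not given in the sources used here. Crypts were freed from the whole colon without the caecum by EDTA, dissociated with trypsin and sorted by colour after dead cells were gated out.

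Senescent cells leave the cell cycle and release cytokines, proteases and growth factors that can reach their neighbours, which is why the cells around them are called bystanders. The colonic epithelium renews from Lgr5-expressing stem cells at the crypt base under Wnt signalling, and its progeny mature into absorptive colonocytes, mucus-secreting goblet cells, and rarer enteroendocrine and tuft cells. The same cells sense bacteria and cytokines, secrete antimicrobial proteins, and run a circadian clock that other tissues and feeding can reset.

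The 5 libraries held 7616242 to 14525391 reads, as implied by the deposited FPKM values (fragments scaled by transcript length and library size), and 10523 to 10715 genes reached 1 FPKM. Across genes, log2(FPKM + 1) correlated at r of 0.985 to 0.991 among untreated libraries, at 0.993 between the doxycycline libraries and at 0.974 to 0.985 between the groups. Untreated animal 3 stood nearest to the doxycycline libraries (0.984 and 0.985). The epithelial list (10 genes, Krt8 the most abundant) summed to 5230 to 6622 FPKM. Each endothelial and smooth muscle marker stayed under 1 FPKM in all 5 libraries, while the summed stromal fibroblast markers were at 5.59 to 10.6 FPKM without and 2.75 to 3.01 FPKM with doxycycline. Of the 10 marker lists for cells other than epithelium, the sums of 3 were higher with doxycycline without overlap. Of all single genes tested, 20.3% lay higher in this way. Among the epithelial lists the deep crypt secretory sum did so too, at 569 to 879 against 1177 to 1349 FPKM. Macrophage markers, mostly Cd14, summed to 26.3 to 31 FPKM without and 34.2 to 45.4 FPKM with doxycycline. Of the 13 macrophage markers, 10 stayed under 1 FPKM in all 5 libraries. Cd68 averaged 0.93 FPKM without and 0.34 FPKM with doxycycline, and C1qa 0.88 and 0.85 FPKM. Mast cell markers summed to 0.965 to 2.52 against 4.65 to 6.86 FPKM, and 4 of the 6 stayed under 1 FPKM. In doxycycline animals 5 and 7 Mcpt1 was at 4.47 and 0 FPKM and Cma1 at 1.04 and 3.94 FPKM. Neutrophil markers, nearly all Ly6g, summed to 2.04 to 5.16 against 39.1 to 102 FPKM. Lymphocyte markers summed to 2.00 to 7.80 against 1.61 to 2.77 FPKM. The part of such cells in the results was not tested.

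The reporter rows give the transcripts of the colours and kinases in each library. EGFP was at 519, 692 and 491 FPKM in untreated animals 1, 3 and 11 and at 815 and 620 FPKM in doxycycline animals 5 and 7. The Xenopus MEK1 transgene was listed at 0 in the 3 untreated libraries, at 12.3 FPKM in the GFP cells of animal 5 and at 28.7 FPKM in those of animal 7. The mCherry cells of the same animals held 288 and 235 FPKM, so the GFP cells held 4.27% and 12.2% of the transgene level of their mCherry counterparts. The mCherry reporter gave nearly the same shares, 4.28% and 11.8%, and in untreated animals it was listed at 0, 0 and 1.36 FPKM, the last in animal 11. That library also held 1.37 FPKM of the human MKK6 transgene, and animal 3 held 0.131 FPKM. In control mice on doxycycline the mCherry share was 0.115% and 0.102%, and in caMKK6 mice it ran from 0.659% to 3.73%. These shares rest on unlike levels, since mCherry cells held 14440 and 11920 FPKM of mCherry in control and 285 and 217 FPKM in caMEK1 mice. The GFP cells held 16.6 and 12.2 FPKM in control and 12.2 and 25.7 FPKM in caMEK1 mice. Both caMEK1 doxycycline GFP libraries therefore contained transgene transcript, more of it in animal 7, and how it got there was not tested.

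**Figure D1:**
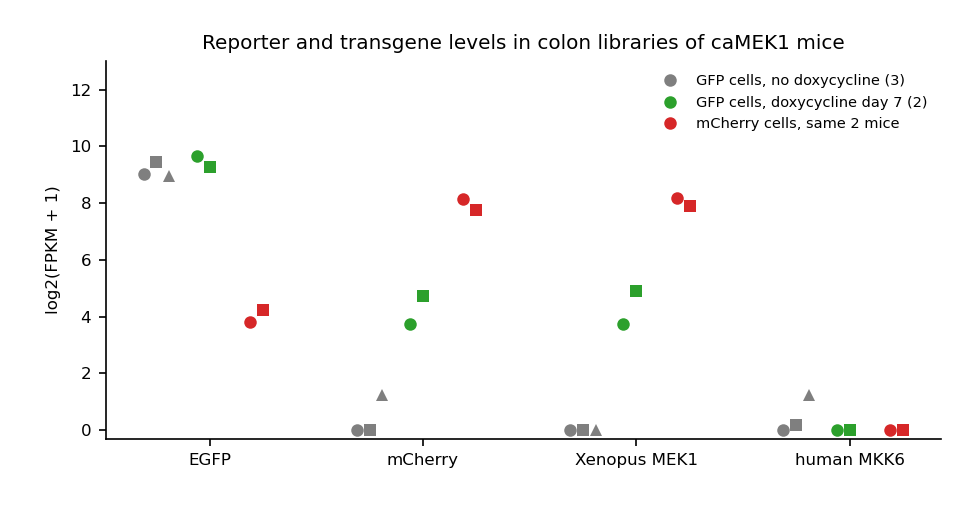
Levels of EGFP, mCherry and the 2 kinase transgenes as log2(FPKM + 1) in the untreated GFP cells, the doxycycline GFP cells and the mCherry cells of the same 2 mice, 1 point a library with the shape giving the replicate number (circle 1, square 2, triangle 3). The Xenopus MEK1 points of the GFP cells on doxycycline (12.3 and 28.7 FPKM) lie between the untreated cells, all listed at 0, and the mCherry cells (288 and 235 FPKM).

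Which genes differed between bystander and untreated cells? Of 11542 genes tested, 154 passed a Benjamini-Hochberg adjusted p below 0.05 in limma, a share of 1.33%. Higher in doxycycline GFP cells were 105 (0.91%) and lower were 49 (0.425%). Their differences of log2(FPKM + 1), called log2 differences here and shown with their standard error, ran from 0.57 to 5.92 among the rises (median 1.37) and from −0.63 to −3.68 among the falls (median −1.18), against a median of −0.02 over all genes tested. Adding 1 FPKM understates the change of genes at a few FPKM. In none of the 154 did the groups overlap, which held for 45.8% of all genes tested (20.3% higher and 25.5% lower). With 2 against 3 animals the number of calls moved with each one left out, from 49 without doxycycline animal 5 to 63 without animal 7, 64 without untreated animal 11, 76 without untreated animal 1 and 260 without untreated animal 3. Of the 154 genes, 27 (20 rises and 7 falls) were called in all 5 of these fits.

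Because the mCherry cells of the same mice were sequenced, the level that a gene would show in GFP cells at the transgene share could be computed for each rise. For 20 of the 105 rises this carried level exceeded 50% of the observed difference, for 69 it was under 10%, and for 16 it lay between. When the share was subtracted from the doxycycline GFP libraries, 83 of the 105 rises and 45 of the 49 falls were still called. The share weights animal 7 above animal 5, so the classes are a description and no evidence of where the transcripts came from.

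**Figure D2:**
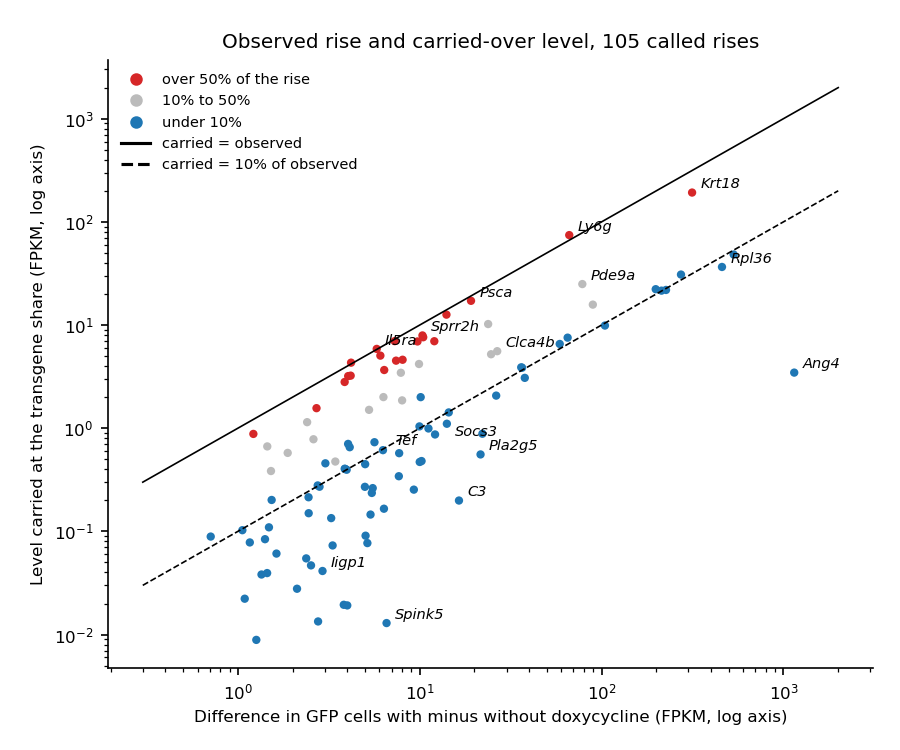
For each of the 105 rises, the difference in mean FPKM between GFP cells with and without doxycycline (log axis) is plotted against the FPKM carried at the transgene share (log axis). Red points, 20 genes with Psca, Ly6g and Krt18 among them, lie near the line where carried equals observed, and blue points, 69 genes with Ang4, C3 and Iigp1, lie near or below the 10% line.

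Ang4, C3, Hmga1b and Spink5 were among the largest rises with under 10% carried. Ang4, an antimicrobial ribonuclease of goblet and Paneth cells (chromosome 14, 51763878 to 51773590, GRCm38), was at 5.85, 185 and 5.15 FPKM in untreated animals 1, 3 and 11 and at 1073 and 1349 FPKM in animals 5 and 7. Untreated animal 3 lay far above its group but below both doxycycline animals, and the mCherry cells of those animals were at only 47.1 and 40.0 FPKM. The log2 difference was 5.92 ± 1.40 (limma adjusted p = 0.041). The call was lost when any library but that of animal 3 was left out, with an adjusted p of up to 0.312 (without animal 5). It was also lost with a pseudocount of 0.1, with the replicate block and with the 5 libraries alone. Reads of Ang4 may be shared with other members of the angiogenin family.

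Complement C3, the central protein of the complement cascade (chromosome 17, 57203970 to 57228136), was at 1.27, 0.97 and 1.11 FPKM without and at 22.8 and 12.3 FPKM with doxycycline, and at 3.79 and 1.93 FPKM in the mCherry cells. Its log2 difference of 3.07 ± 0.37 (limma adjusted p = 0.000219) held in all 5 fits with a library left out. Of that rise 0.65% was carried. Pla2g5, a secreted phospholipase A2, was at 5.01, 5.05 and 5.94 FPKM without and 32.9 and 20.9 FPKM with doxycycline (2.11 ± 0.32, limma adjusted p = 0.00134, and 0.0549 without animal 5). Both genes were higher in both doxycycline GFP libraries than in both mCherry libraries, as were 49 of the 105 rises. The same GFP libraries defined the rises, and the share of all genes with this order was not computed.

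Spink5 and Hamp2 were chosen after their values were seen, because both held in all 5 fits with almost nothing carried. Spink5, an inhibitor of serine proteases, was at 0.131, 0.274 and 0 FPKM without and at 7.44 and 5.97 FPKM with doxycycline, with 0.382 and 0.0777 FPKM in mCherry cells (2.76 ± 0.31, limma adjusted p = 9.1e-05). Hamp2, a hepcidin gene, was at 0.216, 0.225 and 0 FPKM without and 3.24 and 2.58 FPKM with doxycycline (1.77 ± 0.22, limma adjusted p = 0.000271).

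Of the interferon list (34 members tested) 3 rose and none fell (0.91% and 0.425% of all genes), all of them interferon-gamma-inducible GTPases that guard against intracellular microbes. Iigp1 was at 0.108, 0 and 0.0237 FPKM without and at 3.33 and 2.60 FPKM with doxycycline, against 0.775 and 0.404 FPKM in mCherry cells. Its log2 difference was 1.92 ± 0.19 (limma adjusted p = 2.14e-05), and it was called in all 5 fits with a library left out. Igtp (1.93, 1.95 and 2.25 against 8.27 and 6.53 FPKM) and Gbp2 (1.30, 1.15 and 0.52 against 6.15 and 3.76 FPKM) both had a limma adjusted p of 0.0182. Igtp lost the call without any library but that of animal 3 (adjusted p up to 0.312) and Gbp2 without animal 5 or 11 (up to 0.364, without animal 5). The rest of the list did not pass, with Ifit1, a type I interferon target, at 2.79, 0.0989 and 3.73 FPKM without and 0.332 and 0.566 FPKM with doxycycline (limma adjusted p = 0.315), and the list median was 0.15. Beside these, H2-Q4, 1 of 12 tested MHC class I genes, rose from 8.42, 9.76 and 5.09 FPKM to 31.9 and 27.8 FPKM (1.85 ± 0.45, limma adjusted p = 0.0472), and lost the call without any library but that of animal 3 (up to 0.395 without animal 5). It was also lost with a pseudocount of 0.1, the replicate block and voom (limma adjusted p = 0.0624). Reads of H2-Q4 may be split among near-identical class I genes.

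Cytokine and stress lists each gave few calls. Socs3, which feeds back on STAT3 signalling and stands in the NF-kB list (1 of 18 called), was at 3.61, 2.18 and 1.72 FPKM without and at 17.5 and 15.7 FPKM with doxycycline (2.37 ± 0.35, limma adjusted p = 0.00127), and it held in all 5 fits with a library left out. Nos2, the inducible nitric oxide synthase and with Ang4 the only called member of 22 defence genes, was at 0.226, 0.296 and 0.713 FPKM without and 2.78 and 1.31 FPKM with doxycycline (1.08 ± 0.25, limma adjusted p = 0.0378, lost without animal 1, 3 or 5, up to 0.551). Atf5, a transcription factor of the integrated stress response (1 of 18 called), was at 4.22, 5.34 and 4.70 FPKM without and 12.6 and 9.43 FPKM with doxycycline (1.06 ± 0.22, limma adjusted p = 0.0182, lost without animal 1, 5 or 11, up to 0.362). In each case both doxycycline libraries lay above the 3 untreated ones. The Nos2 call was also lost with median scaling and with the 5 libraries alone (limma adjusted p = 0.0796), and that of Atf5 against control doxycycline cells (0.0733).

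Glutathione transferases, which couple glutathione to reactive compounds, moved in both directions. Gsta4, 1 of 14 NRF2 targets, was at 35.2, 28.0 and 44.2 FPKM without and at 132 and 118 FPKM with doxycycline (1.80 ± 0.33, limma adjusted p = 0.0081, lost without animal 5 or 7, up to 0.14). Gsta1 was at 3.15, 1.78 and 0.432 FPKM without and 11.7 FPKM in both doxycycline animals (2.32 ± 0.35, limma adjusted p = 0.00161), with 40.8% of the rise carried. Gstm3 was lower, at 51.5, 57.8 and 46.9 FPKM without and 17 and 28.4 FPKM with doxycycline (−1.20 ± 0.28, limma adjusted p = 0.0382, lost without any library but that of animal 7, up to 0.536). The Gstm3 call was also lost after subtraction (limma adjusted p = 0.0627), with voom (0.0637) and against control doxycycline cells (0.138). Gsta1 and Gstm3 were the 2 called genes of 16 in the xenobiotic list. Reads of the alpha-class genes may be split between near-identical copies.

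The rises with a large carried share are genes that stood far higher in the mCherry cells. Psca, a GPI-anchored surface protein (chromosome 15, 74714839 to 74717069), was listed at 0 in the 3 untreated libraries, at 9.80 and 28.5 FPKM in animals 5 and 7, and at 199 and 211 FPKM in their mCherry cells. The animal with more transgene was again the higher one. Its log2 difference was 4.16 ± 0.30 (limma adjusted p = 4.6e-07), 89.7% of the rise was carried, and after subtraction 1.62 remained (limma adjusted p = 0.0017). Ly6g, another GPI-anchored protein, was at 2.00, 5.16 and 3.07 FPKM without and at 37.7 and 102 FPKM with doxycycline, against 588 and 1010 FPKM in mCherry cells. It rose by 3.90 ± 0.72 (limma adjusted p = 0.00834, and 0.167 without animal 7), the carried share was 112%, and after subtraction the value was −0.17 (limma adjusted p = 0.941). Ly6g is best known as a neutrophil marker, and of the other 7 neutrophil genes S100a9, Cxcr2 and Mmp8 were listed at 0 in all 5 libraries. S100a8, Retnlg and Csf3r were listed at 0 except in doxycycline animal 5 (0.544, 0.849 and 0.0349 FPKM), and Mmp9 except in untreated animal 1 (0.0355 FPKM). The part of neutrophils in the Ly6g value was not tested.

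Others of the 12 largest rises followed the same order. Sprr2h, a small proline-rich protein of cornified envelopes, and Prss22, a serine protease, were listed at 0 in the untreated libraries. Sprr2h reached 2.84 and 17.9 FPKM (mCherry cells 69.5 and 105 FPKM, 76.6% carried) and Prss22 4.75 and 9.81 FPKM (59.4 and 93.3 FPKM, 95.8% carried), and neither was called after subtraction (limma adjusted p = 0.137 and 0.288). Msln, the mesothelial surface protein mesothelin, was at 0.041, 0 and 0.112 FPKM without and 2.46 and 18.5 FPKM with doxycycline (72.8% carried). Aldh1a3, which makes retinoic acid, was at 0.272, 2.22 and 0.283 FPKM against 6.73 and 23.2 FPKM (89.4% carried). Msln lost its call without animal 7 or 11 and Aldh1a3 without animal 7 (limma adjusted p up to 0.264 and 0.144). Neither Msln nor Aldh1a3 was called after subtraction, and the Msln call was also lost with voom and with the 5 libraries alone. Nt5c1a, a cytosolic nucleotidase, had 60.8% carried and was still called after subtraction (1.81, limma adjusted p = 0.0322). Pnliprp2, a pancreatic lipase-related protein, went from 1.12, 2.59 and 1.88 FPKM to 11.4 and 39.8 FPKM (3.01 ± 0.43, limma adjusted p = 0.000953, 42.4% carried) and was also still called (2.44, limma adjusted p = 0.00849).

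Clca4b, of the calcium-activated chloride channel regulator family, was at 2.43, 1.62 and 3.54 FPKM without and 33.5 and 24.9 FPKM with doxycycline (3.12 ± 0.50, limma adjusted p = 0.00222, and 0.0585 without animal 5), with 20.1% carried. Hmga1b, a copy of the chromatin protein gene Hmga1 whose reads may belong to either, was at 0.0773, 0.0808 and 0.381 FPKM without and 13.6 and 11 FPKM with doxycycline (3.50 ± 0.84, limma adjusted p = 0.0439). The Hmga1b call was lost without any 1 of the 5 libraries (adjusted p up to 0.376), with the replicate block and with voom, and in control mice its group means were 3.12 FPKM without and 0.187 FPKM with doxycycline.

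Of the fetal-like and YAP list, which marks regenerating epithelium, 3 of 19 tested members rose (Psca, Msln and Ly6c1) and none fell (0.91% and 0.425% of all genes). Ly6c1 was at 0.15, 0.235 and 0.41 FPKM without and 5.25 and 7.43 FPKM with doxycycline, with 82.8% carried, and was not called after subtraction (limma adjusted p = 0.464). All 3 called members thus had more than 50% of their rise carried, and the median of the list was 0.32, and −0.16 after subtraction. The ERK output list had 1 of 18 called, the phosphatase Dusp4 (4.26, 6.33 and 3.62 against 13.5 and 11.7 FPKM, 38.8% carried, limma adjusted p = 0.0472), which lost the call after subtraction (limma adjusted p = 0.193) and without any library but that of animal 3 (up to 0.415). The Dusp4 call was also lost with a pseudocount of 0.1, without a filter, with median scaling and with voom. It was lost with the replicate block and with animal as a random block too. Dusp6 and Spry4, feedback inhibitors of the ERK pathway, did not pass (0.04 ± 0.36 and 0.70 ± 0.27, limma adjusted p = 0.97 and 0.194). Map2k1, the mouse gene for MEK1, was at 40.0, 56.2 and 40.4 FPKM without and 49.3 and 57.0 FPKM with doxycycline (limma adjusted p = 0.694). Krt18, the 1 call of 10 epithelial identity genes, was at 380.5, 377.1 and 301.2 FPKM without and 637 and 697.5 FPKM with doxycycline (0.92 ± 0.23, limma adjusted p = 0.049). Its call was lost without any 1 of the 3 untreated libraries and after subtraction. Median scaling, quantile normalization, GFP libraries alone and the 5 libraries alone also ended it.

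**Figure D3:**
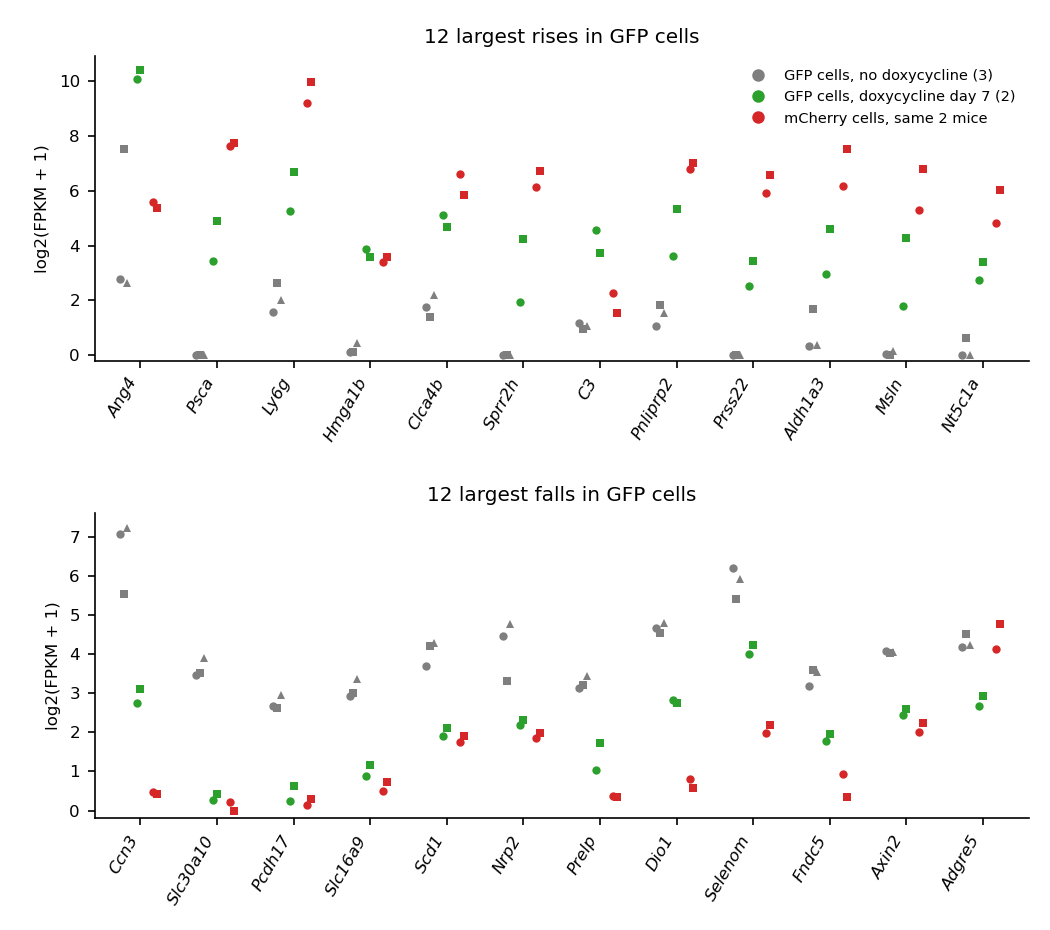
The 12 largest rises (top) and falls (bottom) as log2(FPKM + 1) in the 3 untreated GFP libraries, the 2 doxycycline GFP libraries and the 2 mCherry libraries of the same mice, with shapes as the replicate numbers (circle 1, square 2, triangle 3). For Psca, Ly6g, Sprr2h and Prss22 the GFP points of doxycycline mice lie between untreated and mCherry cells, while for Ang4 and C3 they lie above both, and for each fall shown except Adgre5 both mCherry points lie below every untreated point.

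The falls were led by a matricellular protein and a metal exporter. Ccn3, a secreted matricellular protein also known as NOV, was at 132, 45.3 and 149 FPKM in untreated animals 1, 3 and 11 and at 5.74 and 7.64 FPKM with doxycycline (−3.68 ± 0.51, limma adjusted p = 0.000669). Slc30a10, a manganese exporter of the plasma membrane, was at 10.1, 10.4 and 13.9 FPKM without and at 0.213 and 0.347 FPKM with doxycycline (−3.27 ± 0.28, limma adjusted p = 2.74e-06). Scd1, the desaturase that makes monounsaturated fatty acids and the single call of 10 fatty acid synthesis genes, was at 11.9, 17.5 and 18.5 FPKM without and 2.78 and 3.29 FPKM with doxycycline (−2.05 ± 0.30, limma adjusted p = 0.000999). These 3, with Adgre5, the adhesion receptor CD97 (17, 21.8 and 17.8 against 5.36 and 6.63 FPKM, −1.50 ± 0.22), are among the 7 falls called in all 5 fits with a library left out. For 46 of the 49 falls both mCherry libraries were below all 3 untreated GFP libraries, the others being Acnat1, Adgre5 and Xk. The same untreated libraries defined the falls, and the share of all genes with this order was not computed, so the count only describes them. The summed stromal fibroblast markers were also lower with doxycycline (2.75 to 3.01 FPKM against 5.59 to 10.6 FPKM), and their part in the falls was not tested.

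The other large falls held transporters, surface receptors and secreted proteins. Slc16a9, a monocarboxylate transporter family member, went from 6.56, 6.96 and 9.22 FPKM to 0.845 and 1.25 FPKM (−2.06 ± 0.36, limma adjusted p = 0.00498, and 0.115 without animal 5). Pcdh17, a protocadherin, went from 5.33, 5.12 and 6.79 FPKM to 0.174 and 0.546 FPKM (−2.32 ± 0.36, limma adjusted p = 0.00161, and 0.0508 without animal 5). Nrp2, a co-receptor for semaphorins and VEGF, was at 20.9, 8.97 and 26.4 FPKM without and at 3.53 and 3.94 FPKM with doxycycline (limma adjusted p = 0.0354, lost without any library but that of animal 3, up to 0.33). Dio1, the deiodinase that activates thyroid hormone, was at 24.4, 22.3 and 26.6 FPKM without and 6.07 and 5.72 FPKM with doxycycline (limma adjusted p = 0.00891, lost without animal 5 or 7, up to 0.106). The matrix protein Prelp (−1.89 ± 0.38), the endoplasmic reticulum selenoprotein Selenom (−1.73 ± 0.37) and Fndc5, precursor of the hormone irisin (−1.57 ± 0.25), were also among the 12 largest falls, with limma adjusted p of 0.0161, 0.0242 and 0.00209. Leaving out animal 5 ended these calls (adjusted p of 0.333, 0.312 and 0.0515), and Prelp was also lost without animal 11 and Selenom without animal 1, 11 or 7. With GFP libraries alone the calls of Nrp2, Prelp and Selenom were lost (limma adjusted p = 0.0617, 0.0517 and 0.0557), with voom those of Prelp and Slc16a9, with a pseudocount of 0.1 that of Dio1, and against control doxycycline cells that of Selenom (0.182).

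Of 20 stem cell and Wnt target genes tested, 2 fell and none rose (0.425% and 0.91% of all genes), 18 had a log2 difference below 0, and the median was −0.74 (−0.02 over all genes, −0.40 for the same list in control mice with against without doxycycline and −0.48 in caMKK6 mice). No member differed from the control mice in its change (limma adjusted p = 0.356 for Lgr5 and 0.281 for Axin2). Lgr5, the receptor that marks crypt base stem cells, was at 3.55, 2.20 and 3.02 FPKM without and at 0.515 and 0.419 FPKM with doxycycline (−1.41 ± 0.31, limma adjusted p = 0.0288, lost without any library but that of animal 3, up to 0.235). Axin2, a feedback inhibitor and direct Wnt target, was at 15.9, 15.3 and 15.5 FPKM without and 4.41 and 5.05 FPKM with doxycycline (−1.53 ± 0.37, limma adjusted p = 0.0439). The Axin2 call was lost without any 1 of the 5 libraries (adjusted p up to 0.378, without animal 5). Both calls were also lost with voom (limma adjusted p = 0.0847 for Lgr5 and 0.0741 for Axin2) and with GFP libraries alone (0.0501 and 0.0711). Cd44, at 38.3, 13.6 and 37.7 FPKM against 5.57 and 7.62 FPKM, and Ephb3, at 12.9, 11.2 and 13.2 FPKM against 4.34 and 4.88 FPKM, did not pass (limma adjusted p = 0.0654 and 0.0887) although their groups did not overlap. In bulk libraries fewer cells of a type and less RNA per cell cannot be told apart.

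None of 41 proliferation genes passed, and all 41 were below 0 (median −0.74), but the same list had a median of −0.69 in control mice. Mki67 was at 61.2, 45.0 and 46.5 FPKM without and 19.1 and 24.7 FPKM with doxycycline (−1.18 ± 0.55, limma adjusted p = 0.286), and its difference from the control mice was −0.43 ± 0.77. Among goblet cell genes (19 tested, Ang4 the 1 call, median 0.19, against −1.17 in control mice) values lay on both sides of 0. Muc2, the gel-forming mucin, was at 3932, 1171 and 3726 FPKM without and 911 and 831 FPKM with doxycycline (−1.57 ± 0.59, limma adjusted p = 0.194). Clca1, at 342, 926 and 359 FPKM against 1996 and 2222 FPKM, and Retnlb, at 81.2, 183 and 53.9 FPKM against 628 and 575 FPKM, lay higher and did not pass either (limma adjusted p = 0.0989 and 0.107). In each of these 3 genes untreated animal 3 was the untreated library nearest to the doxycycline ones. No member of the absorptive (19), deep crypt secretory (7), tuft (13) or enteroendocrine (12) lists passed, and the enteroendocrine median was −1.02, with −0.92 in control mice.

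Senescence genes gave no call in the bystanders. None of 19 secretory phenotype genes, 6 CDK inhibitors or 25 p53 targets was called. Over all genes tested the share called was 1.33%, at which lists this short would often hold none. Cdkn1a, the CDK inhibitor p21, was at 28.1, 33.7 and 37.0 FPKM without and 58.1 and 78.1 FPKM with doxycycline (1.02 ± 0.41, limma adjusted p = 0.224), with 36.9% of the difference carried, and its change in control mice was 0.96. Cdkn2a was listed at 0 in all 5 libraries, and Cdkn2b was at 28.9, 29.6 and 24.5 FPKM against 30.1 and 29.4 FPKM (0.11 ± 0.47). Lmnb1, a nuclear lamina gene lost in senescent cells, was at 38.3, 28.2 and 24.7 FPKM without and 13.9 and 16.7 FPKM with doxycycline (−0.93 ± 0.36, limma adjusted p = 0.202). Gdf15, a secreted stress signal, and Krt20, a marker of mature colonocytes, were at 0.25 ± 0.46 and 0.71 ± 0.66. At these standard errors a change of these genes was not detectable rather than absent.

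The circadian clock list held 5 rises and 1 fall among 15 tested genes (0.91% and 0.425% of all genes), with a median of 0.79, against 0.21 in control and 0.04 in caMKK6 mice. The clock is a feedback loop in which ARNTL and CLOCK bind E-box sequences to activate Per, Cry and Nr1d genes, whose products repress them, and in which DBP and TEF act through D-box sequences. The letters CACGTG stand for the E-box and TTATGTAA for the D-box, each searched on both strands with no overlap between them, in the 250 bases before RefSeq starts (GRCm38.p6), where 6.02% and 0.819% of 32851 promoters hold them. All 6 called clock genes are in that table. The E-box stood before Ciart and Tef, the D-box before Per3, and neither before Dbp, Nr1d2 or Arntl. The E-box stood before 5 of the 15 clock genes with a RefSeq promoter, and besides the 2 called ones these are Cry1 and Per1, which did not pass, and Bhlhe41, which was too low to be tested. The 2 promoters with more than 1 match are shown 5′ to 3′ along the gene, with matches in capitals.
Ciart, chr3:95882229-95882478, minus strand: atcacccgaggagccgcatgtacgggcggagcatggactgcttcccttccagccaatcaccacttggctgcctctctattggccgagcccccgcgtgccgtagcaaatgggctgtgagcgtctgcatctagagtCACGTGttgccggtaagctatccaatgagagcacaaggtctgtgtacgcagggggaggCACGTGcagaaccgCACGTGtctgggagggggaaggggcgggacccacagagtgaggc
Per3, chr4:151044666-151044915, minus strand: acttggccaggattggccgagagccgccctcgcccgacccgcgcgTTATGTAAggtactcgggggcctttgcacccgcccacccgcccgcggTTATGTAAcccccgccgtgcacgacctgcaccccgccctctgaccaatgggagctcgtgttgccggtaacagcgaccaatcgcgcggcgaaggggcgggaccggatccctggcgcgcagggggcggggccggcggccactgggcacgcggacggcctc
Ciart holds 3 E-box matches and Per3 holds 2 D-box matches, and Tef holds 1 E-box match before each of its 2 RefSeq starts, the first of these windows lying inside the gene as GENCODE draws it. A match is a description of these letters only.

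Both output genes of the clock rose. Tef was at 1.12, 1.47 and 1.68 FPKM without and at 15.7 and 9.53 FPKM with doxycycline (2.46 ± 0.32, limma adjusted p = 0.000322) and held in all 5 fits with a library left out. Dbp was at 1.22, 1.01 and 1.52 FPKM without and 17.1 and 5.81 FPKM with doxycycline (2.31 ± 0.40, limma adjusted p = 0.00421, and 0.216 without animal 5). Animal 5 was the higher of the doxycycline pair in both, and carried shares were 7.85% and 3.69%.

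The repressor genes gave 3 further calls. Nr1d2, the nuclear receptor REV-ERB beta, was at 4.62, 5.32 and 3.58 FPKM without and 16.7 and 12.2 FPKM with doxycycline (1.49 ± 0.27, limma adjusted p = 0.00614, and 0.183 without animal 5). Ciart, a repressor of the ARNTL and CLOCK pair, was at 0.222, 0.29 and 0.426 FPKM without and 4.28 and 1.24 FPKM with doxycycline (1.39 ± 0.27, limma adjusted p = 0.0106, lost without animal 5, where it was 0.373, and with voom). Per3 was at 1.80, 2.30 and 1.16 FPKM without and 6.95 and 4.29 FPKM with doxycycline (1.26 ± 0.30, limma adjusted p = 0.0396, lost without any library but that of animal 3, up to 0.502). Nr1d1, Per1, Cry2, Per2 and Bhlhe40 had positive values, the last at 0.05, and did not pass. Cry1 and Nfil3 had negative values (−0.64 and −0.48) and did not pass either.

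Among the activators, Arntl, which encodes BMAL1, fell. It was at 8.95, 11.2 and 9.56 FPKM without and at 2.42 and 4.85 FPKM with doxycycline (−1.28 ± 0.27, limma adjusted p = 0.0241, lost without animal 1, 5 or 11, up to 0.451). Npas2, a relative of Clock, was at 11.6, 11 and 12 FPKM against 5.54 and 5.40 FPKM (−0.95, limma adjusted p = 0.131). Clock itself was at 10.6, 16.1 and 12.7 FPKM against 8.70 and 11.4 FPKM (limma adjusted p = 0.633). In control mice none of the 15 clock genes passed, with Tef, Dbp and Arntl at −0.10, −0.08 and 0.24, and the difference between the mouse lines passed for Tef alone (2.56 ± 0.45, limma adjusted p = 0.014). In caMKK6 mice Tef, Dbp and Nr1d2 also rose (1.42, 1.40 and 1.17) and Arntl and Npas2 fell (−1.04 and −1.24). Since the hour of collection is not given, its part in these values was not tested. Fkbp5, the single call of 11 glucocorticoid genes, was at 12.1, 11.9 and 19.3 FPKM without and 42.6 and 35.6 FPKM with doxycycline (1.41 ± 0.32, limma adjusted p = 0.0352, lost without any library but that of animal 11, up to 0.377), with 0.99 in control mice. The Fkbp5 call was also lost after subtraction of the carried share (limma adjusted p = 0.0512) and against control doxycycline cells (0.0887).

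**Figure D4:**
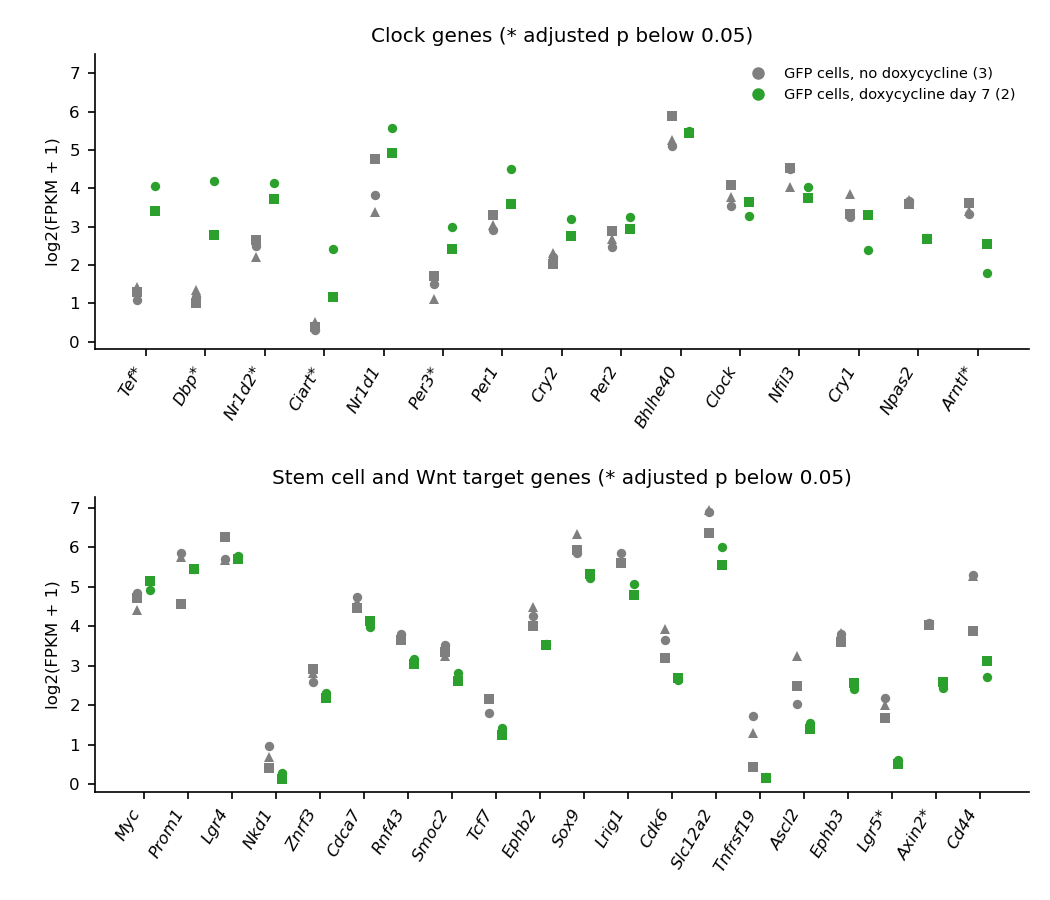
Levels of the 15 tested clock genes (top) and the 20 tested stem cell and Wnt genes (bottom) as log2(FPKM + 1) in the 3 untreated and 2 doxycycline GFP libraries, ordered by log2 difference, an asterisk marking genes with an adjusted p below 0.05 and the shape giving the replicate number (circle 1, square 2, triangle 3). Tef, Dbp, Nr1d2, Ciart and Per3 sit above every untreated point and Arntl below, and in the lower panel 18 of 20 genes have a log2 difference below 0.

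Rbm3 and Cirbp encode RNA-binding proteins that respond to cooling, and both were chosen after their values were seen. Rbm3 was at 15.2, 20.9 and 14.7 FPKM without and 59.3 and 47.6 FPKM with doxycycline (1.61 ± 0.24, limma adjusted p = 0.00107) and was called in all 5 fits with a library left out. Cirbp was at 8.83, 13.4 and 6.24 FPKM without and 42.3 and 29.3 FPKM with doxycycline (1.85 ± 0.29, limma adjusted p = 0.00222, and 0.0887 without animal 5). Both also rose in caMKK6 mice (1.75 and 1.16), and both differed from the control mice (1.89 and 2.45, limma adjusted p = 0.0143 and 0.0115).

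Doxycycline itself was addressed through the control mice. Their GFP cells with against without doxycycline gave no call in limma, at the higher dose of 2 mg/mL. At an unadjusted p below 0.05 stood 1392 genes, more than the share of 0.05 of the 11542 tested that no change would give on average. With 2 against 3 libraries, changes with doxycycline may thus have gone uncalled. The change in caMEK1 mice differed from that in control mice for 36 genes (0.312%), 30 higher (0.26%) and 6 lower (0.052%), with 1458 at an unadjusted p below 0.05. Of the 105 rises, 27 also passed this test, and of the 49 falls 5. Both comparisons share the caMEK1 libraries. The number rested on single control animals, since leaving out control doxycycline replicate 1 gave 13 genes, replicate 2 gave 282 and control untreated replicate 2 gave 15. Leaving out caMEK1 animals 3, 11, 5 and 7 in turn gave 88, 17, 16 and 22, and voom on recovered reads gave 4.

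Among genes higher against control were Psca (4.25 ± 0.43, limma adjusted p = 9.53e-05), Pla2g5 (3.34 ± 0.45, limma adjusted p = 0.00155), C3 (3.07 ± 0.53, limma adjusted p = 0.0125), Pnliprp2 (3.01 ± 0.61, limma adjusted p = 0.0391) and Prss22 (2.98 ± 0.48, limma adjusted p = 0.00711). Pla2g5 was at 6.49 FPKM without and 2.08 FPKM with doxycycline in control mice on average, a change that did not pass by itself (limma adjusted p = 0.261). Lower against control were Slc30a10 (−3.59 ± 0.39, limma adjusted p = 0.000158), Acnat1, an acyltransferase that conjugates fatty acids to amino acids (−1.87 ± 0.39, limma adjusted p = 0.0433), Fndc5 (−1.73 ± 0.35, limma adjusted p = 0.0387) and Itga5, the alpha subunit of the fibronectin receptor (−1.42 ± 0.28, limma adjusted p = 0.0361). Slc30a1, a zinc exporter, was lower by this test too (limma adjusted p = 0.0314). It was at 8.91, 9.34 and 12.5 FPKM without and 5.37 and 5.57 FPKM with doxycycline in caMEK1 mice (limma adjusted p = 0.0898) and at 8.16 and 15.4 FPKM on average in control mice.

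The last comparison asks whether bystanders of the other kinase changed alike. In caMKK6 mice 300 genes were called between GFP cells with and without doxycycline (2.6%), 151 higher (1.31%) and 149 lower (1.29%). These libraries are not shared with the caMEK1 comparison. Both comparisons take the spread of each gene from the same fit, however, so calls in the 2 are not independent. Of the 105 rises, 40 were also rises there (38.1% of these and 26.5% of the 151), and of the 49 falls 22 were also falls (44.9% and 14.8% of the 149). None was called in the opposite direction. The shared rises include C3 (2.39 beside caMKK6 cells), Pla2g5 (2.42), Socs3 (1.47), Gsta1 (1.59) and the clock genes Tef, Dbp and Nr1d2, and the shared falls include Slc30a10 (−3.02), Ccn3 (−2.12), Fndc5 (−2.56), Nrp2 (−2.03) and Dio1 (−1.43). Of the 69 rises with under 10% carried 33 were called beside caMKK6 cells, and of the 20 with over 50% carried 1 was, Syt8.

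The difference between the 2 bystander changes passed for 5 genes (0.0433%), all higher in caMEK1 mice, with 338 at an unadjusted p below 0.05. They were Psca (3.69 ± 0.41, limma adjusted p = 0.000367), Sprr2h (3.00 ± 0.52, limma adjusted p = 0.0407), Prss22 (2.75 ± 0.46, limma adjusted p = 0.0281), Iigp1 (1.65 ± 0.26, limma adjusted p = 0.0182) and Prl2a1, a prolactin family gene (1.29 ± 0.16, limma adjusted p = 0.000793). In Psca, Sprr2h, Prss22 and Prl2a1 the mCherry cells stood above the GFP cells, and 45.9% to 95.8% of the rise was carried. Iigp1 was the exception, with 1.29% carried, and its caMKK6 group means were 0.0395 FPKM without and 0.258 FPKM with doxycycline. Ang4 had a difference of 6.68 ± 1.88 that did not pass (limma adjusted p = 0.861). Under voom none of the 5 passed, and leaving out 1 library at a time gave 2 to 11 genes, the 11 without caMEK1 doxycycline animal 5.

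**Figure D5:**
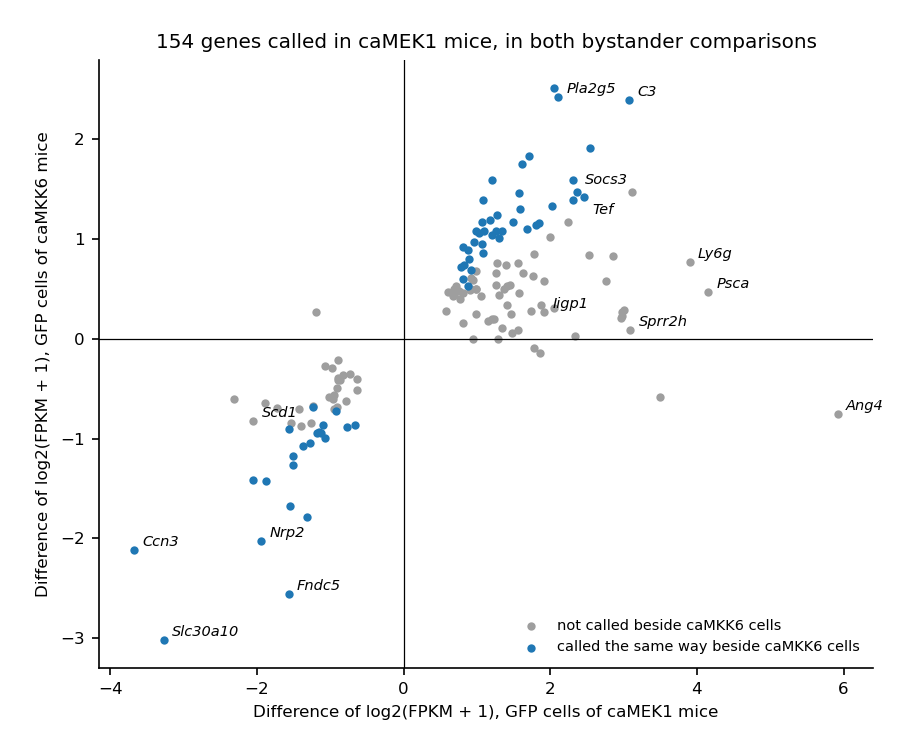
Each of the 154 genes called in caMEK1 bystanders is placed by its log2 difference of FPKM + 1 in caMEK1 mice (horizontal) and in caMKK6 mice (vertical). Blue points, 40 rises and 22 falls such as C3, Pla2g5, Slc30a10 and Ccn3, were called in the same direction beside both kinases, and Psca, Sprr2h, Ly6g and Ang4 lie far to the right near or below the horizontal axis.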

How the data were processed

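RNA of sorted colon cells was sequenced in bulk, from 50 ng of RNA a library per the labels' protocols. The authors deposited 1 table of FPKM values for 70 libraries; cutadapt 1.12, STAR 2 and the mm10 genome are named in the submitters' processing notes, and the counting tool and annotation are not given in the sources used here. Deposited FPKM values under 1000 reads came out as whole reads within 0.02, which gave the depths quoted. Of 21859 gene rows, 21191 identifiers matched the GENCODE annotation used for coordinates.

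Kept were 11542 genes that reached 1 FPKM in 2 or more of the 23 colon libraries. They were tested as log2(FPKM + 1) with limma 3.58.1 in R 4.3.3, with an intensity trend, all 9 colon groups in 1 fit and 2-sided p-values adjusted by Benjamini-Hochberg over all genes tested. The 3 comparisons use the same fit. Tables and plots were made with Python 3.11.15, numpy 2.4.6, pandas 2.3.3 and matplotlib 3.10.9. The script was tested on simulated data. Carried levels are the share of Xenopus MEK1 in a GFP library times the gene's FPKM in the mCherry library of that animal, less the same share of the untreated mean.

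Members and gene lists were chosen with earlier results of these data known. Genes named are 12 sentinel genes, the 12 largest rises and 12 largest falls with at least 5 FPKM in the higher group and no overlap, up to 5 genes a direction for each difference of changes, and up to 4 called members of each of 40 gene lists (2 of highest level where none was called), passing over predicted genes and symbols on more than 1 row. Spink5, Hamp2, Rbm3, Cirbp, Cd44, Ephb3, Clca1, Retnlb, Ifit1, Npas2, Clock and the other clock genes that did not pass were chosen after their values were seen, as were genes named only for shared calls or marker checks. Alternatives were another pseudocount, filter, scaling, test, set of libraries, subtraction of the carried share, blocks, and leaving out each library. Each of the 5 libraries compared is a different animal. The p-values, however, rest on the spread within all 9 colon groups, not on these animals alone. In that fit the GFP and mCherry libraries of each doxycycline mouse were treated as independent. With animal as a random block, the correlation within animals was 0.474. That fit called 166 genes between caMEK1 GFP cells with and without doxycycline, 142 of them among the 154. With GFP libraries only, 104 were called, 98 of them among the 154.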

Additional observations from a re-analysis of the deposited data

Results flagged for a closer look

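The change with doxycycline differed between caMEK1 and control mice, by the limma test of that difference, for Psca (4.25 on the log2 scale), Pla2g5 (3.34), C3 (3.07), Pnliprp2 (3.01), Prss22 (2.98), Slc30a10 (−3.59), Acnat1 (−1.87), Fndc5 (−1.73), Slc30a1 (−1.63) and Itga5 (−1.42). The same test between caMEK1 and caMKK6 mice passed for Psca (3.69), Sprr2h (3.00), Prss22 (2.75), Iigp1 (1.65) and Prl2a1 (1.29). Psca, Sprr2h and Prss22 had 76.6% to 95.8% of their rise carried at the transgene share, and Iigp1 had 1.29%.

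The human MKK6 transgene, which caMEK1 mice should lack, was found in 2 of the 5 libraries compared, at 0.131 FPKM in untreated animal 3 and at 1.37 FPKM in untreated animal 11. It was listed at 0 in the control GFP libraries. In GFP cells of untreated caMKK6 mice, animals 1, 8 and 14, it was at 0, 0.123 and 0.281 FPKM. Animal 11 also held 1.36 FPKM of mCherry. Whether samples or reads were mixed was not tested.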

How the results depend on the processing

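The count of 154 genes was 99 with voom on recovered reads (76 higher, 23 lower), 277 when only the 5 libraries were fitted (41.9% higher, against 68.2%) and 427 when doxycycline GFP cells of control mice replaced the untreated group. Leaving out 1 library gave 49 to 260, with 55.8% of calls higher without untreated animal 3 and 83.7% without doxycycline animal 5. Replicate numbers in the titles name different animals, and deviations of same-numbered samples correlated at 0.136 and −0.0352. The deviations of 2 doxycycline libraries mirror each other, so these values cannot tell whether libraries of 1 number were handled together. Untreated replicate 3 (animal 11) held 14525391 reads, against 7958466 and 7616242 in replicates 1 and 2, and the doxycycline group has no replicate 3. Whether the number marks a batch was not tested. A fit with the replicate block called 112 genes, 107 of them among the 154. The other alternatives for this count stayed within 1.5 times of it. The 36 differences from control mice became 87 with the replicate block, 4 with voom and 13 to 282 with a library left out (57.4% higher without control doxycycline replicate 2, against 83.3%). The 5 differences from caMKK6 mice became 1 with a pseudocount of 0.1, 9 without a filter, 2 with the replicate block, 0 with voom and 2 to 11 with a library left out. Subtracting the carried share turned Ly6g to −0.17 by the Xenopus MEK1 share and to −0.17 by the mCherry share. Before median scaling, the log2 medians of the doxycycline libraries differed from those of the untreated ones by −0.03 on average. With 2 against 3 animals, small changes were not detectable.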

Other observations

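Ribosomal protein genes, looked at as a family after their values were seen, lay higher in the bystander cells. Of 78 tested, 9 rose (11.5%, against 0.91% of all genes), among them Rpl36, Rpl17, Rpl12 and Rps6, and none fell. In all, 77 had a log2 difference above 0, with a median of 0.85 that was 0.88 with median scaling, 0.59 with quantile normalization and 0.86 with voom. In caMKK6 mice the median was 0.82 and 24 rose, and in control mice it was −0.39 with none called. Reads of these genes may be shared with their pseudogene copies.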
